A study of Homo sapiens with 15 samples.

Results

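Aminoacyl-tRNA synthetases charge each tRNA with its amino acid, and human cells keep largely separate gene sets for the enzymes of the cytosol and of the mitochondrion. GARS1 and KARS1 are exceptions that each make both enzymes, and they were counted as cytosolic here. Many of the cytosolic genes are known targets of ATF4, the transcription factor that raises amino acid uptake, synthesis and tRNA charging when amino acids are scarce or the endoplasmic reticulum is stressed, whereas the mitochondrial genes are not known as a group for that control. WARS1, the cytosolic tryptophanyl-tRNA synthetase, is also known as an interferon-inducible gene. The set described here held 38 listed genes, made up of 19 cytosolic enzyme genes, 16 mitochondrial enzyme genes and 3 scaffold genes of the multi-synthetase complex. A gene was taken as measured where a transcript cluster of the array, a group of probes read as 1 value, carried its symbol or the older symbol without the final 1. This found 36 of the 38 genes on 38 of 28926 clusters, with 19 cytosolic enzymes, 16 mitochondrial enzymes and the scaffold gene AIMP1. The scaffolds AIMP2 and EEF1E1 were not analysed here. VARS1 and VARS2 each had 2 clusters, with identical values for VARS1. For VARS2 the cluster with the higher mean was used.

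The cells were MT-2, an established human CD4+ T-cell line transformed by the retrovirus HTLV-1. They were cultured for 48 hours untreated, with ascorbic acid (AA, vitamin C) at 10 (low), 50 (intermediate) or 100 µg/ml (high), or with 1000 IU/ml of interferon-α2A (IFN-α), and total RNA was read on 15 whole-transcript arrays, 3 per condition. All groups were the same line, so the virus was present in every one of them. Tags in the sample titles split the arrays into 3 sets with 1 array of every condition each, called experiments 1, 2 and 3 here. The tags read as dates. Experiments 2 and 3 carry the same date with another letter each, and the labels do not say whether the experiments were separate cultures, so p-values measure the spread between these arrays.

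Array medians lay between 6.69 and 6.85 on the log2 scale. The high-dose AA array of experiment 3 stood apart, with a mean correlation of 0.976 with the other arrays, against 0.991 to 0.995 for the remaining 14. In that array the dimmest quartile of all clusters was 0.23 above its untreated partner in the median and the brightest quartile was 0.19 below it, and the part of this in the results was not tested. CD4, IL2RA, CCR4, CD2 and FOXP3 were above the median of all 15 arrays, whereas the T-cell receptor chains CD3D, CD3E and CD3G and the receptor CD28 were below it in all 15. Of the markers of other cell types, the B-cell genes MS4A1 and CD79A, the monocyte genes CD14 and LYZ, the NK-cell gene KLRD1, the CD8 chains CD8A and CD8B, the erythroid gene HBB and the epithelial gene EPCAM were below the median in all 15 arrays, and MS4A1, LYZ and KLRD1 were also below the lower quartile in all 15. The monocyte gene CSF1R was below the median in 14 arrays and the epithelial gene KRT8 in 3, and the NK-cell gene NCAM1 was above it in all 15. All 36 synthetase genes were above the array median in all 15 arrays, at percentiles of 78.6 to 99.4 for the cytosolic enzymes, 65.5 to 86.5 for the mitochondrial enzymes and 72.7 for AIMP1. Brightness on an array depends on the probes, so these places do not rank the genes by RNA.

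To see what high-dose AA did to the synthetase genes, the 3 high-dose arrays were compared with the 3 untreated arrays. Most cytosolic enzymes had a negative difference, and the mitochondrial enzymes were evenly split: 17 of 19 cytosolic genes had a negative mean log2 difference, with a median of -0.10, against 8 of 16 mitochondrial genes with a median of -0.01 and 13189 of 28926 clusters overall with a median of 0.02. After cyclic loess scaling the counts were 14 of 19 and 7 of 16, with medians of -0.07 and 0.04. Without that scaling, the brightest quartile of all clusters, which held all 19 cytosolic enzymes, had a median of -0.04. The part of brightness in the contrast was not tested. The differences were small. In the fit used here, no synthetase gene passed the threshold of an unadjusted limma p of 0.001 that the study's methods set. Of all clusters, 75 (0.259%) passed it, and no cluster of the array had an adjusted p under 0.05 in this comparison. At an unadjusted p under 0.05, 5 cytosolic genes and 1 mitochondrial gene were lower, against 3.62% of all clusters, and none was higher, against 7.34% of all clusters. Without the high-dose array of experiment 3 the lower counts were 2 cytosolic genes and 0 mitochondrial genes, and the share of all clusters in that fit is not given. With the experiment as a replicate block, 7 cytosolic genes and 1 mitochondrial gene were lower and 1 cytosolic gene was higher, against 1879 lower and 2794 higher of the 28926 clusters. The high-dose values lay wholly below the untreated values for 5 cytosolic genes (AARS1, GARS1, IARS1, MARS1 and TARS1) and no mitochondrial gene, against 3.66% of all clusters, and wholly above for 1 (FARSB), against 6.86%.

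**Figure D1:**
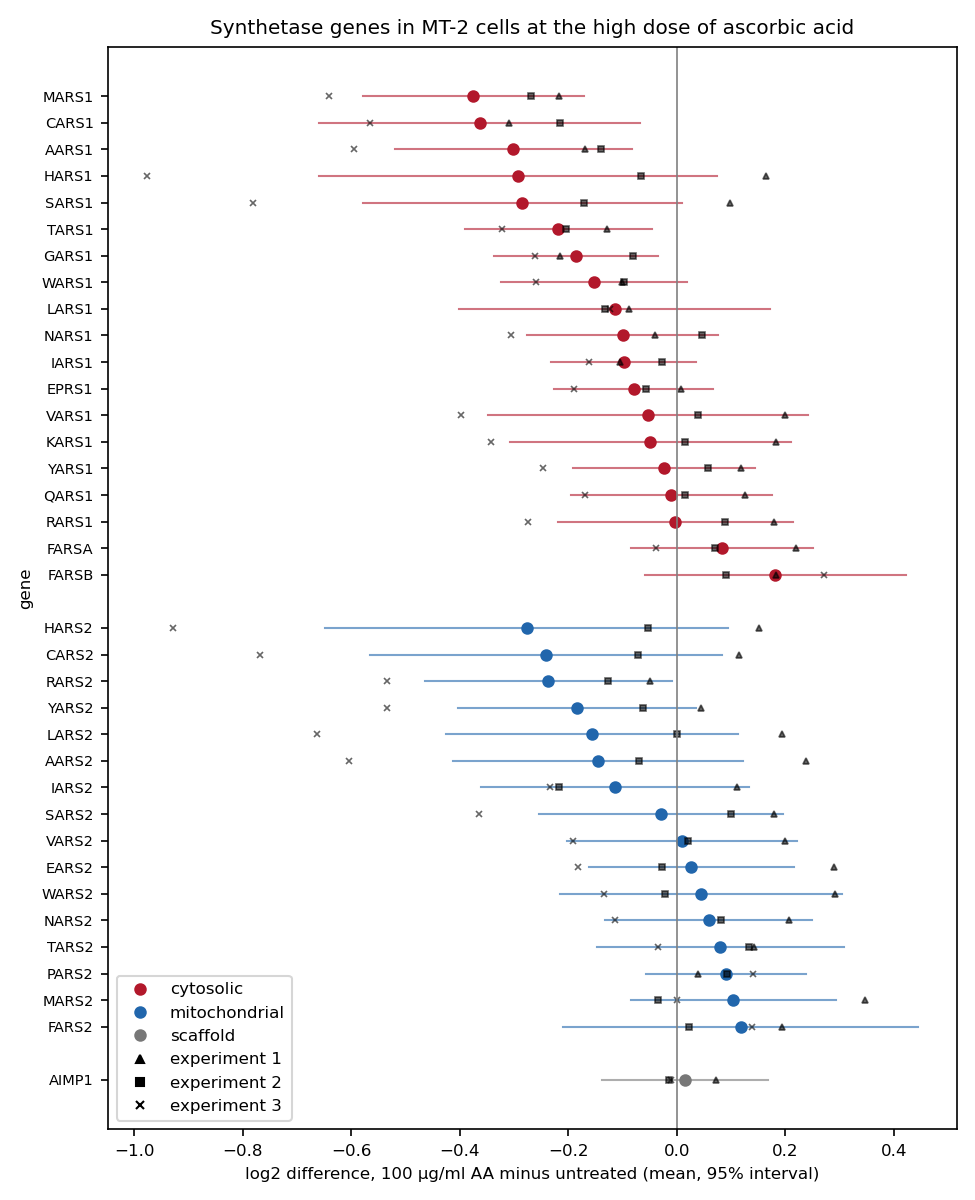
Log2 difference between high-dose AA and untreated MT-2 cells for the 36 measured synthetase genes. Circles and lines give the mean over 3 experiments with its 95% interval from limma and black symbols give each experiment; the cytosolic genes MARS1, CARS1, AARS1, TARS1 and GARS1 and the mitochondrial gene RARS2 have intervals wholly below 0, and experiment 3 is the lowest of the experiments for most genes.

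MARS1, which charges the tRNA for methionine and thereby also serves the start of translation, had the smallest p of the set. Its log2 values were 10.62, 10.69 and 10.68 in the untreated arrays of experiments 1 to 3, 10.50, 10.62 and 10.63 at 10 µg/ml, 10.44, 10.46 and 10.55 at 50 µg/ml, and 10.40, 10.43 and 10.04 at 100 µg/ml. The high-dose arrays were all below the untreated arrays, and so were the intermediate-dose arrays, whereas the low-dose arrays overlapped them. The high-dose difference was -0.38 ± 0.09 (SE; limma adjusted p = 0.386), and the experiments gave -0.22, -0.27 and -0.64. With all 4 doses fitted as a line, MARS1 fell by 0.35 per 100 µg/ml (SE 0.08; limma adjusted p = 0.385), the 1 synthetase gene called by the dose slope, against 0.245% of all clusters. With the experiment as a replicate block the call was lost in that paired test. It was also lost when any 1 of 9 of the 12 arrays was left out, with slopes of -0.24 to -0.36 per 100 µg/ml (-0.24 without the high-dose array of experiment 3), and held without the low-dose array of experiment 1 or the high-dose arrays of experiments 1 and 2. The high-dose difference from untreated was itself called after cyclic loess scaling of the arrays (-0.34).

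AARS1 charges alanine, and its high-dose log2 values of 10.70, 10.59 and 10.27 were all below the untreated values of 10.87, 10.73 and 10.87. The difference was -0.30 ± 0.10 (SE; limma adjusted p = 0.422). TARS1, the threonine enzyme, had 9.91, 9.75 and 9.66 at the high dose, against 10.04, 9.95 and 9.98 untreated, again without overlap (difference -0.22 ± 0.08 SE, limma adjusted p = 0.437). Both genes had means that stepped down at each dose, as the plot of array values shows.

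GARS1, the glycine enzyme of both compartments, reached its low level at the intermediate dose. Its values were 11.93, 11.81 and 11.99 in untreated cells, 11.88, 11.79 and 11.84 at 10 µg/ml, 11.75, 11.69 and 11.73 at 50 µg/ml, and 11.72, 11.72 and 11.73 at 100 µg/ml. The intermediate-dose and high-dose arrays were all below the untreated arrays, by 0.19 in the mean at both doses (SE 0.07, limma adjusted p = 1.0 at 50 µg/ml and 0.441 at 100 µg/ml). CARS1, the cysteine enzyme, had 8.69, 8.41 and 8.14 at the high dose, against 9.003, 8.62 and 8.70 untreated. The groups overlapped because the high-dose array of experiment 1 was above the untreated array of experiment 2, but each experiment was lower on its own, by 0.31, 0.22 and 0.56 (mean difference -0.36 ± 0.14 SE, limma adjusted p = 0.441).

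**Figure D2:**
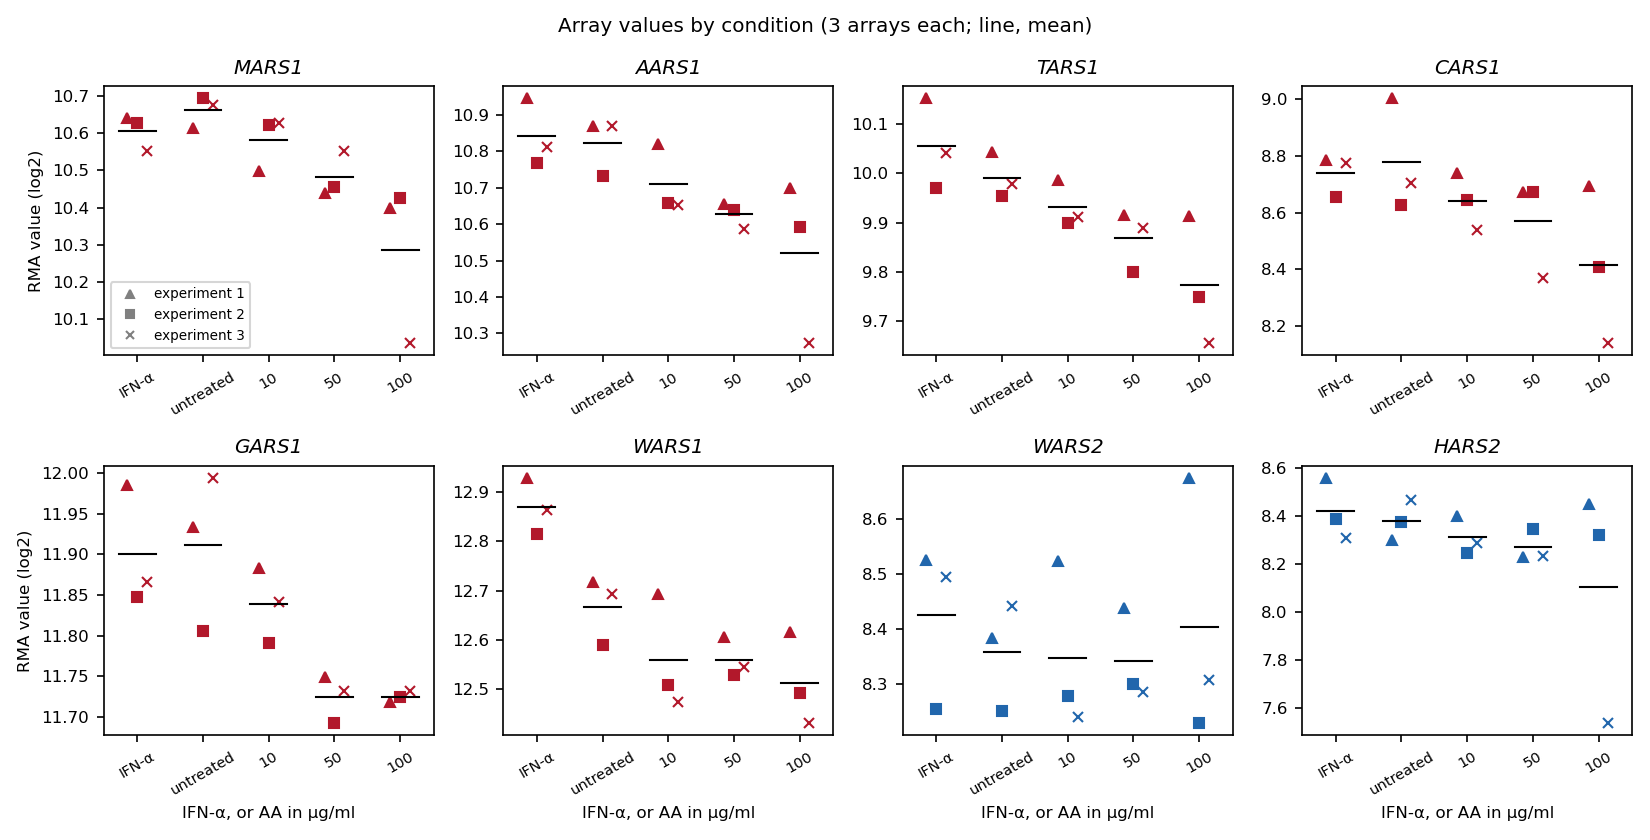
Array values (RMA, log2) of 6 cytosolic genes in red and 2 mitochondrial genes in blue, by condition, with 3 arrays each, symbols for the experiments and a line at the mean. MARS1, AARS1, TARS1 and CARS1 have their lowest mean at 100 µg/ml, GARS1 is equally low at 50 and 100 µg/ml, WARS1 is highest with IFN-α, and HARS2 is low in 1 high-dose array.

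Of the other cytosolic enzymes, the serine enzyme SARS1 (-0.28 ± 0.14 SE) and the histidine enzyme HARS1 (-0.29 ± 0.17 SE) were as low in the mean as AARS1 but not across experiments. SARS1 had 10.52, 10.61 and 10.09 at the high dose, against 10.42, 10.78 and 10.87 untreated. HARS1 had 10.92, 10.99 and 10.18, against 10.76, 11.06 and 11.16. For both genes experiment 1 was higher with AA, and experiment 3, whose high-dose array stood apart, was lower by 0.78 and 0.98. The isoleucine enzyme IARS1 was lower by less, at 11.52, 11.55 and 11.47 with the high dose, against 11.63, 11.58 and 11.63 untreated, but without overlap (-0.10 ± 0.06 SE). The only cytosolic genes with a positive mean difference were FARSA and FARSB, the α and β subunits of the phenylalanine enzyme. FARSB had 11.16, 11.11 and 11.38, against 10.97, 11.02 and 11.11 untreated, with all high-dose arrays above all untreated arrays (0.18 ± 0.11 SE, limma adjusted p = 0.537), and FARSA differed by 0.08 with overlap. The 9 remaining cytosolic genes (EPRS1, KARS1, LARS1, NARS1, QARS1, RARS1, VARS1, WARS1 and YARS1) had differences between -0.15 and 0.00, all with overlap and none with an unadjusted p under 0.05.

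The cytosolic enzymes were also divided by a list of ATF4 targets taken from background knowledge. The list was chosen with earlier results of these data known, so the division is not independent of them. All 13 listed targets were lower at the high dose, with a median of -0.15 (12 of 13 and -0.15 after cyclic loess scaling). Of them, 5 had an unadjusted p under 0.05 in that direction, against 3.62% of all clusters. Without the high-dose array of experiment 3 it was 2, in a fit for which the share of all clusters is not given. Of the 6 other cytosolic genes (FARSA, FARSB, HARS1, KARS1, QARS1 and RARS1), 4 were lower, with a median of -0.01 (2 and 0.02 after cyclic loess scaling), and none had an unadjusted p under 0.05. A separate list of 25 ATF4-dependent genes outside the set, also chosen with earlier results known, was lower in 25 of 25 with a median of -0.33. Of these, 14 had an unadjusted p under 0.05, against 3.62% of all clusters, and 2 were called, against 0.259%. INHBE, SLC7A11 and CHAC1 of this list are among the top down-regulated genes that the study reported from these arrays. Their lower values here are thus not an independent result. The called genes were INHBE, a secreted inhibin subunit (-0.72 ± 0.12 SE, limma adjusted p = 0.260), and SLC7A11, the cystine importer (-0.63 ± 0.11 SE, limma adjusted p = 0.260). With the replicate block 5 of the 25 were called, against 193 of all clusters. Without the high-dose array of experiment 3, 24 of the 25 were lower, with a median of -0.24. In that fit 10 had an unadjusted p under 0.05, with no share of all clusters given. DDIT3, a stress transcription factor named here after its values were seen because it lies next to MARS1 on the chromosome, differed by -0.52 ± 0.17 (SE, limma adjusted p = 0.422).

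At the intermediate dose the order was the same with smaller differences. The ATF4-target enzymes had a median of -0.11 (12 of 13 lower), the other cytosolic enzymes 0.03 (1 of 6 lower) and the mitochondrial enzymes -0.00 (9 of 16 lower), against 0.01 over all clusters. None was called, against 0.0311% of all clusters, and GARS1 was the only synthetase gene lower at an unadjusted p under 0.05, against 1.47%. The arrays did not overlap for 6 cytosolic genes (AARS1, EPRS1, GARS1, IARS1, MARS1 and TARS1) and the mitochondrial RARS2 on the lower side, against 4.67% of all clusters, and for VARS1, CARS2 and IARS2 on the higher side, against 5.69%. At the low dose the medians were -0.07 for the ATF4-target enzymes (11 of 13 lower), 0.03 for the other cytosolic enzymes and 0.02 for the mitochondrial enzymes. No synthetase gene was called there, against 0.0207% of all clusters, or had an unadjusted p under 0.05. Only IARS1 and RARS2 lay wholly below the untreated arrays (4.88% of all clusters did) and none lay wholly above (6.69% did). Across the doses, 5 cytosolic genes and no mitochondrial gene had a negative slope with an unadjusted p under 0.05, MARS1, TARS1, AARS1, GARS1 and CARS1, against 3.38% of all clusters. Without the high-dose array of experiment 3 it was 3 cytosolic genes, and 1 mitochondrial gene had a positive slope at that level. The share of all clusters in that fit is not given. All the doses were set against the same 3 untreated arrays, so the comparisons are not independent of each other.

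The medians of all 19 cytosolic enzymes, of the other cytosolic enzymes and of the mitochondrial enzymes changed sign between experiments at the high dose. The median of the ATF4-target enzymes did not. At the high dose the median of the 13 ATF4-target enzymes was -0.10, -0.10 and -0.31 in experiments 1 to 3, with 9, 10 and 13 of them lower. The mitochondrial median was 0.19, -0.02 and -0.21, and that of the other cytosolic enzymes was 0.18, 0.04 and -0.22. For all 19 cytosolic enzymes it was 0.008, -0.06 and -0.27, with 9, 11 and 18 of them lower. In each experiment the ATF4-target median was below the mitochondrial median, by 0.29, 0.07 and 0.09. At the intermediate dose it was below it by 0.14, 0.06 and 0.08 and at the low dose by 0.10, 0.04 and 0.03. The brightest quartile of all clusters held all 19 cytosolic enzymes but only some of the mitochondrial enzymes. It had high-dose medians of 0.08, -0.01 and -0.19 in the same experiments, and its part in these medians was not tested. Without the high-dose array of experiment 3, 12 of 19 cytosolic and 3 of 16 mitochondrial genes were lower, with medians of -0.06 and 0.07, and 11 of 13 ATF4-target enzymes were lower, with a median of -0.11. The differences without that array were -0.25 for MARS1, -0.18 for AARS1, -0.23 for CARS1, -0.13 for SARS1, -0.16 for TARS1 and -0.19 for GARS1.

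**Figure D3:**
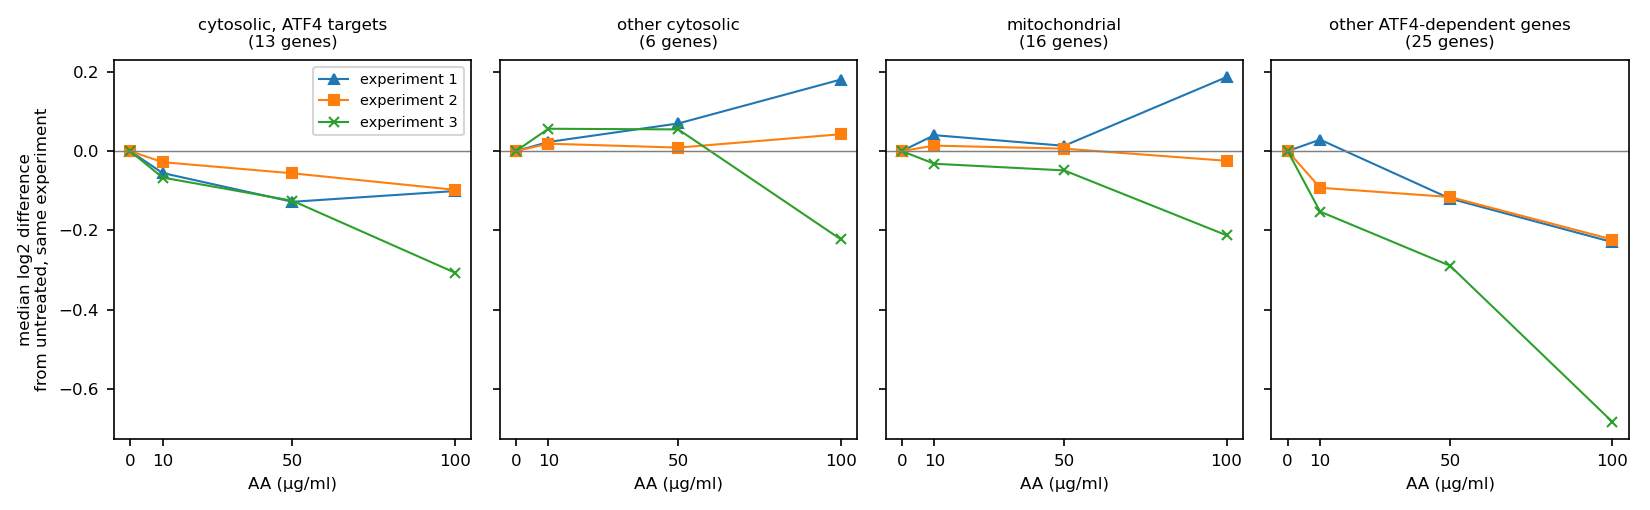
Median log2 difference from the untreated array of the same experiment against the dose of AA in µg/ml, 1 line per experiment, with untreated set at 0. The lines of the 13 ATF4-target enzymes and of the 25 other ATF4-dependent genes end below 0 in all experiments, whereas the 6 other cytosolic enzymes and the 16 mitochondrial enzymes end above 0 in experiment 1 and below 0 in experiment 3.

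Among the mitochondrial enzymes RARS2, which charges arginine, had the smallest p. Its values were 8.06, 7.95 and 8.03 in untreated cells, 7.82, 7.89 and 7.83 at 10 µg/ml, 7.82, 7.90 and 7.70 at 50 µg/ml, and 8.01, 7.82 and 7.50 at 100 µg/ml. The low-dose and intermediate-dose arrays were below all untreated arrays, the high-dose arrays overlapped them, and the high-dose difference was -0.24 ± 0.11 (SE, limma adjusted p = 0.450). With 1 array left out that difference ranged from -0.35 without the high-dose array of experiment 1 to -0.097 without that of experiment 3. HARS2, the mitochondrial histidine enzyme, had 8.45, 8.32 and 7.54 at the high dose, against 8.30, 8.38 and 8.47 untreated. Its neighbour HARS1 had the same pattern, with experiment differences of 0.16, -0.07 and -0.98 for HARS1 and 0.15, -0.05 and -0.93 for HARS2. The start sites of these genes lie head to head, 85 bases apart, so that their promoter windows share 184 bases (chr5:140691321-140691504). The cysteine enzyme CARS2 had 9.36, 9.24 and 8.53, against 9.24, 9.32 and 9.30 untreated, with only the array of experiment 3 clearly low. The other mitochondrial genes had high-dose differences between -0.18 (YARS2, tyrosine) and 0.12 (FARS2, phenylalanine), all with overlap. VARS2 was slightly higher in the cluster used but differed by -0.02 in its other cluster, so the count of lower mitochondrial genes depends on that choice. Other genes of mitochondrial translation, 12 measured of 13 listed factors, had a median of -0.02 with 6 lower, and the 5 cytosolic elongation factors had a median of -0.04 with 3 lower; none of them had an unadjusted p under 0.05. The genes of the multi-synthetase complex were not set apart, with 8 measured of 10 listed, a median of -0.06 and AIMP1 at 0.02 ± 0.07 (SE).

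Promoter windows from RefSeq (GRCh38.p14), 250 bases before to 50 bases after each start site, were searched on both strands for the core of the C/EBP-ATF response element through which ATF4 acts, written TGATGNAA. A window was matched for 16 cytosolic and 14 mitochondrial enzyme genes; none was used for LARS1, VARS1, YARS1, AARS2 and VARS2. The letters were in 7 of the 16 cytosolic genes, all 7 of them among the ATF4-target enzymes, and in 1 of the 14 mitochondrial genes, YARS2, against 4.46% of 27305 genes with a window and 3.62% of all 35116 windows. In 6 of the 7 the open base read C on the strand of the motif, a form found in 1.08% of genes. The matches are printed because the cytosolic ones included all 5 genes with an unadjusted p under 0.05 at the high dose. The core is in capitals with 10 bases on each side, read 5′ to 3′ on the strand of the gene, on which the core appears as its reverse complement in all but NARS1 and YARS2.
MARS1 (chr12:57488054-57488081, + strand): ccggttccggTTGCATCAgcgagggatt
AARS1 (chr16:70289676-70289703, - strand): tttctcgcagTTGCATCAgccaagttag
TARS1 (chr5:33440957-33440984, + strand): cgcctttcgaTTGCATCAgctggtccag
CARS1 (chr11:3057408-3057435, - strand): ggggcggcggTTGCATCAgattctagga
GARS1 (chr7:30594835-30594862, + strand): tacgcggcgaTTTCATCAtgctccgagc
IARS1 (chr9:92293693-92293720, - strand): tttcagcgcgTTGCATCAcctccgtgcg
NARS1 (chr18:57621805-57621832, - strand): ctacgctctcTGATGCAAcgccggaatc
YARS2 (chr12:32756077-32756104, - strand): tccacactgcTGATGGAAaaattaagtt

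The core began 4, 2, 13 and 33 bases before the start site in MARS1, CARS1, IARS1 and GARS1, 187 bases before it in AARS1 and 197 bases before it in YARS2. In TARS1 and NARS1 it began at the third and the 15th base of the transcript. The 7 had a median high-dose difference of -0.22, with 7 of 7 lower between -0.38 and -0.10. The 9 cytosolic genes with a window and no match had a median of -0.05, with 7 of 9 lower between -0.29 and 0.18, and 13 mitochondrial genes with no match had a median of 0.03, with 6 lower. Over the array as a whole the letters did not go with lower values: 527 clusters of genes with a match had a median of 0.03, and 14380 clusters of genes without one had -0.01. Of the 25 other ATF4-dependent genes, 20 had a window, and 6 of these held the letters. A match is a description of the sequence and not a measured binding site.

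**Figure D4:**
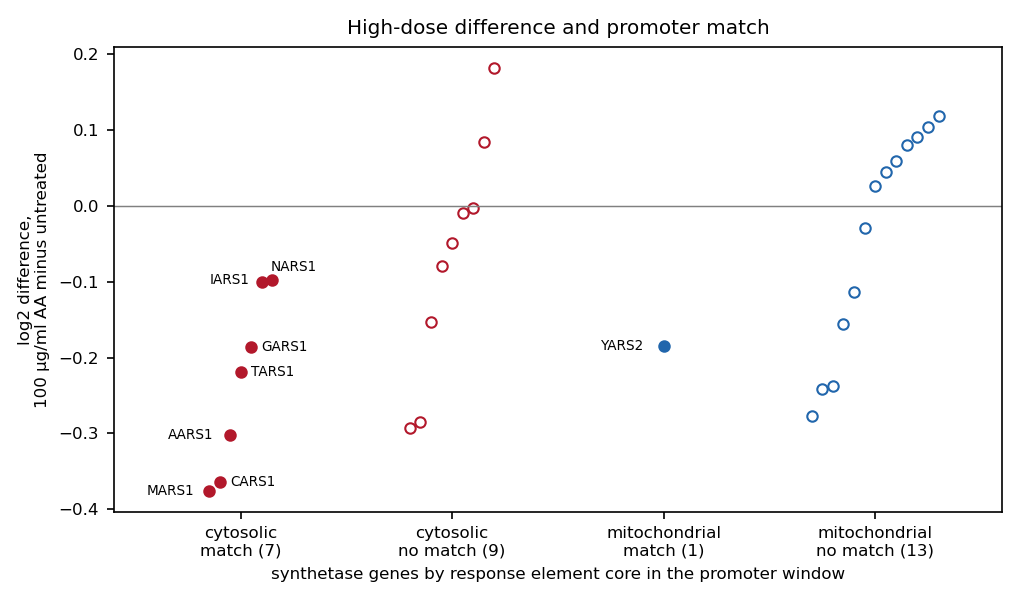
Log2 difference between high-dose AA and untreated cells for each enzyme gene with a promoter window, split by whether the window holds TGATGNAA on either strand (filled points, match). All 7 cytosolic genes with a match and YARS2 lie below 0, and the genes without a match lie on both sides of it.

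WARS1 was considered apart because of its link to interferon. Its values were 12.93, 12.82 and 12.86 with IFN-α, against 12.72, 12.59 and 12.69 in untreated cells. All IFN-α arrays were above all untreated arrays, and the experiments gave 0.21, 0.23 and 0.17. The difference of 0.20 ± 0.08 (SE, 95% interval 0.03 to 0.37) had the smallest p of the set in this comparison but did not pass the threshold (limma adjusted p = 1.0). An exact two-sided permutation test of its 3 against 3 values gave p = 0.1, the smallest p this design allows. On the linear scale the difference was 1.15-fold, far under that of the interferon-induced genes OAS1 (log2 difference 3.54 ± 0.08 SE, adjusted p = 5.63e-12 by limma) and MX1 (3.44 ± 0.13 SE, adjusted p = 1.16e-09). OAS1 and MX1 had the largest differences of 10 measured interferon-response genes listed as a check. The list ranged from -0.01 to 3.54 with a median of 0.50. Of the 10 genes, 9 were higher and 5 were called higher. Others differed by far less than OAS1, with means of 9.28 with IFN-α against 9.02 untreated for PSMB8, and 11.90 against 11.59 for TAP1.

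No synthetase gene was called with IFN-α, against 0.28% of all clusters, and WARS1 was the only one higher at an unadjusted p under 0.05, against 0.868%. YARS1, the cytosolic tyrosine enzyme, was also higher without overlap, at 9.99, 9.99 and 10.03, against 9.90, 9.87 and 9.97 (2.62% of all clusters were higher without overlap), with a difference of 0.09 ± 0.08 (SE). QARS1, the glutamine enzyme, was lower without overlap, at 11.78, 11.72 and 11.65, against 11.90, 11.85 and 11.84 (2.93% of all clusters were), by 0.15 in the mean (SE 0.09, limma adjusted p = 1.0). WARS2, the mitochondrial tryptophan enzyme, had 8.53, 8.25 and 8.49 with IFN-α, against 8.38, 8.25 and 8.44 untreated, a difference of 0.07 with overlap. The medians were 0.01 for the cytosolic and -0.03 for the mitochondrial enzymes, against -0.01 for all clusters.

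With AA, WARS1 lay on the other side of the untreated level. Its values were 12.69, 12.51 and 12.48 at 10 µg/ml, 12.61, 12.53 and 12.55 at 50 µg/ml, and 12.62, 12.49 and 12.43 at 100 µg/ml, below the untreated array of the same experiment in each case but overlapping the untreated group at each dose. The high-dose difference from untreated was -0.15 ± 0.08 (SE, 95% interval -0.32 to 0.02, limma adjusted p = 0.484). Set against IFN-α, high-dose AA gave the only call of a synthetase gene between 2 conditions. WARS1 was lower with high-dose AA than with IFN-α in all arrays, by 0.31, 0.32 and 0.43 in the experiments, and fell by 0.36 in the mean (SE 0.08, limma adjusted p = 0.105), against 0.65% of all clusters called. With the replicate block the adjusted p was 0.0306, a threshold of 0.05 that 0.619% of all clusters passed. The call was lost when any 1 of the 6 arrays was left out except the high-dose array of experiment 1, with differences of -0.32 to -0.38.

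The same comparison had 6 cytosolic genes lower at an unadjusted p under 0.05, against 4.15% of all clusters. These were WARS1, TARS1 (-0.28 ± 0.08 SE, limma adjusted p = 0.261), MARS1 (-0.32 ± 0.09 SE, adjusted p = 0.285), AARS1, GARS1 and CARS1. In the mitochondrial set the proline enzyme PARS2 had an unadjusted p under 0.05 in the other direction (0.15 ± 0.07 SE, limma adjusted p = 0.401), against 7.95% of all clusters, with 8.43, 8.53 and 8.55 at the high dose, against 8.40, 8.32 and 8.32 with IFN-α. Without the high-dose array of experiment 3, 5 cytosolic genes were lower and 2 cytosolic and 2 mitochondrial genes were higher at that level. The share of all clusters in that fit is not given, so these counts have no background beside them. The high-dose arrays were all below the IFN-α arrays for 7 cytosolic genes (AARS1, GARS1, IARS1, MARS1, SARS1, TARS1 and WARS1), against 3.74% of all clusters, and all above them for PARS2 and MARS2, against 7.46%. The cytosolic median was -0.12 with 16 of 19 lower, and the mitochondrial median was -0.01 with 9 of 16 lower, against 0.03 for all clusters.

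WARS1 has 2 promoter windows in RefSeq. The core of the interferon-stimulated response element, written GAAANNGAA, and the interferon-γ-activated site, written TTCNNNGAA, were searched on both strands; TTCNNNGAA reads the same on both. Both were found in 1 of the windows and neither in the other. They occur in 9.86% and 9.38% of genes with a window. The 250 bases before the start site of the window with the matches are shown because WARS1 was considered apart for its link to interferon. It was not called with IFN-α. Both motifs are in capitals, 142 bases (TTCNNNGAA) and 55 bases (GAAANNGAA) before the start site.
WARS1 (chr14:100375348-100375597, - strand): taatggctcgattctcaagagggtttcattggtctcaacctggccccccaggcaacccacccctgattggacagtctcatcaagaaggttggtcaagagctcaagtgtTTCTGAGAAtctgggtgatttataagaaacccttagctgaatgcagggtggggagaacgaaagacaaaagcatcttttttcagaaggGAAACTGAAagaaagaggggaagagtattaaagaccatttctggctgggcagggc

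Among the other enzyme genes GAAANNGAA was also in windows of GARS1, IARS1 and EARS2, and TTCNNNGAA in windows of CARS1, TARS1, PARS2 and WARS2. With IFN-α these 7 genes had differences between -0.06 and 0.07, all with overlap.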

How the data were processed

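Total RNA of MT-2 cells was hybridised to Affymetrix whole-transcript arrays, and the values that the authors deposited are log2 expression values made by Robust Multichip Average (RMA, with the xps package per the study's methods), 1 per transcript cluster and array; the genome build is not given in the sources used here, and the number of arrays limits the precision. Clusters were named through the platform annotation (19310 carried 1 symbol, 1752 several and 7864 none). The deposited values were used without further filtering or scaling. limma 3.58.1 (R 4.3.3) fitted 5 condition means to 15 arrays and, for the dose slope, a line to the 12 arrays of the untreated and AA conditions. The fit of condition means was tested on simulated data with independent noise in each array. That simulation held no shared experiment effect and no array that stood apart, so it cannot show how the p-values behave with them. As in the study's methods, a cluster was called at an unadjusted p under 0.001, and Benjamini-Hochberg adjusted p-values over all clusters are given. Against untreated cells this called 75 clusters with high-dose, 9 with intermediate-dose and 6 with low-dose AA, and 81 with IFN-α. The study reported more regulated genes in each of these comparisons, so its counts were not reproduced and the calls here are not the study's calls. Arrays of different conditions with the same replicate number, 1 to 3, share an experiment tag in their titles. Their deviations from the condition means had a median correlation of 0.28 within a tag (30 pairs) and -0.17 between tags (60 pairs), and the experiment was used as a replicate block in an alternative fit. Members, gene lists and tests were chosen with earlier results of these data known. Named genes were WARS1, WARS2, up to 8 members with the smallest p in each comparison, members whose groups did not overlap, and up to 4 other genes of a list. Promoters came from RefSeq and were read with Python 3.11.15.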

Additional observations from a re-analysis of the deposited data

How the results depend on the processing

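The counts of synthetase genes called rested on single genes near the threshold. Between high-dose AA and untreated cells the count was 0, and it was 1 with the replicate block as a random term, 1 after cyclic loess scaling and 1 at an unadjusted p under 0.01 (MARS1 each time), 4 with array weights (AARS1, CARS1, MARS1 and TARS1), whose estimation stopped before it converged, and 0 to 1 when an array or an experiment was left out. Between high-dose AA and IFN-α the count was 1 (WARS1), and it was 5 with array weights, 0 with only these arrays in the fit, 0 at an adjusted p under 0.05, 4 at an unadjusted p under 0.01 and 0 to 2 with arrays or experiments left out. For the dose slope the count was 1 (MARS1), and it was 0 with the fixed replicate block, 0 with array weights, 0 at an adjusted p under 0.05, 3 at an unadjusted p under 0.01 and 0 to 1 with arrays or experiments left out. The fixed replicate block changed no other count of synthetase genes called; of the interferon-response genes it called 6 higher with IFN-α, in place of 5. The cause of these shifts was not tested. For array weights, cyclic loess scaling, an unadjusted p under 0.01 and arrays left out, the share of all clusters called is not given. Those counts therefore have no background to be read against. The fixed replicate block called 193 of all clusters between high-dose AA and untreated cells, in place of 75. It called 354 between high-dose AA and IFN-α, in place of 188, and 227 for the dose slope, in place of 71. WARS2, which was never called, changed sign: after cyclic loess scaling it was 0.010 at the intermediate dose, 0.0053 at the low dose and 0.024 between high-dose AA and IFN-α, and with arrays left out it ranged from -0.099 to 0.043 at the low dose, -0.071 to 0.024 at the intermediate dose, -0.090 to 0.13 at the high dose, -0.16 to 0.067 between high-dose AA and IFN-α and -0.081 to 0.12 per 100 µg/ml for the slope. The median at the high dose stayed below 0 for the cytosolic enzymes in each alternative run (-0.20 to -0.02) and lay on both sides of 0 for the mitochondrial enzymes (-0.12 to 0.10), and WARS1 stayed higher with IFN-α (0.16 to 0.23) and uncalled. Within experiment 1 alone the cytosolic median was 0.008. With 3 arrays a condition, differences of the size seen here sit close to the spread between arrays.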
